A study of Mus musculus with 16 samples.

Results

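Ventricles of BACHD mice at 15 mo of age were compared with ventricles of WT mice of the same age, gene by gene. The comparison used 8 of the 16 arrays of the series, 4 from aged BACHD hearts and 4 from aged WT hearts, and it covered all 25697 probes of the array. The members were fixed by the labels alone. BACHD mice carry the full-length mutant form of the human huntingtin gene on a bacterial artificial chromosome, they were on the C57BL6/J background, and the WT mice were their littermates. The groups were BACHD at 15 mo (4 arrays), WT at 15 mo (4 arrays), BACHD at 3 mo (4 arrays) and WT at 3 mo (4 arrays). The labels call these ages old and young and the tissue heart, and the methods give the months and the ventricles. All 16 arrays were normalized together, and the brightest probe of a gene was chosen over all 16. Beyond that, the arrays at 3 mo entered the estimate of the spread and the comparison of the 2 ages. The question was which transcripts differed with genotype late in the disease of this model. The array mice were a cohort of their own, apart from those in which heart function was followed.

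The adult ventricle burns mainly fatty acids, which are taken up by the myocyte, carried into mitochondria as carnitine esters and oxidized there, with a buffer of triglyceride held in lipid droplets. Under sustained load, rodent ventricles switch on genes that are typical of the fetal heart, among them the slow myosin heavy chain Myh7 and the natriuretic peptides Nppa and Nppb, and they often lower genes of fatty acid use. Fibroblasts lay down the collagens of the matrix between myocytes, and macrophages and endothelial cells make up much of the rest of the tissue. Whole-tissue RNA mixes all of these, so fewer cells of a type and less RNA per cell cannot be told apart in any result given here.

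Signals are on the log2 scale after background correction and quantile normalization, and a difference is BACHD minus WT on that scale. Probes with a detection p-value below 0.01 were taken as detected. A probe was called where the moderated test of limma, fitted across all probes, gave an unadjusted P below 0.005. That threshold was taken over with the published methods. Beside single genes the adjusted p of that fit is printed (Benjamini-Hochberg, over all probes), and P stands for the unadjusted value, by which calls were kept or lost. Both measure only the spread between these arrays, 1 for each mouse by the methods, and 4 arrays a group set the limit of precision. Arrays are named by genotype and replicate number, as in BACHD 3.

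The 8 aged arrays had a median signal of 133 to 157, detected 9978 to 10708 probes and correlated with each other at 0.987 to 0.994. All 8 measured markers of ventricular myocytes were detected on every aged array, with a mean level of 13.39 to 13.46 in BACHD hearts and 13.42 to 13.49 in WT hearts. The 4 defining atrial markers (Myl4, Myl7, Sln and Mybphl) stood high on 4 aged arrays of both genotypes, with a mean of 7.57 on BACHD 3 and 7.19 on BACHD 4 against 9.65 on WT 4 and 7.28 on WT 2. The other aged arrays had 5.61 and 5.47 in BACHD hearts and 5.53 and 5.30 in WT hearts. Their part in the results was examined by adding the atrial level to the fit and by leaving these 4 arrays out. The 11 measured markers of fast skeletal muscle had a mean level of 7.50 on BACHD 1. Their mean was 6.72, 6.64 and 6.49 on BACHD 2 to 4 and 6.48 to 6.67 in WT hearts. Of these markers 3 were detected on every aged array, 0 were called, 10 differences were positive and the median was 0.09. The part of skeletal muscle in the results was not tested. Xist was detected on 0 of the 8 aged arrays, and Eif2s3y, a Y-linked gene, on all 8. The mouse Htt probe averaged 5.69 ± 0.19 in BACHD hearts and 5.85 ± 0.19 in WT hearts (SD, n = 4 each). Which of its bases the human transgene shares was not examined, so it does not check the labels.

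At the threshold, 230 of 25697 probes were called, which is 0.895% of all probes. Of these, 128 were higher in BACHD hearts (0.498% of all probes) and 102 were lower (0.397%). They stood for 211 genes, and 11 called probes had no symbol. The smallest adjusted p in this limma fit was 0.138, so that 0 probes passed 0.05, while 1572 probes (6.12%) had a P below 0.05. Most differences were small. Their median size was 0.39 on the log2 scale, and only 5 called probes reached 1, among them Myh7, Nppa and Ano10. By detection, the calls were 136 of 9240 probes detected on all 8 aged arrays (1.47%), 33 of 2666 detected on 1 to 7 (1.24%) and 61 of 13791 detected on none (0.442%). The values of BACHD and WT arrays did not overlap for 168 of the 230, against 825 of all probes (3.21%). Leaving out the aged arrays one at a time, 64 of the 230 kept their call every time, 40 of them among the 136 that were detected throughout.

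**Figure D1:**
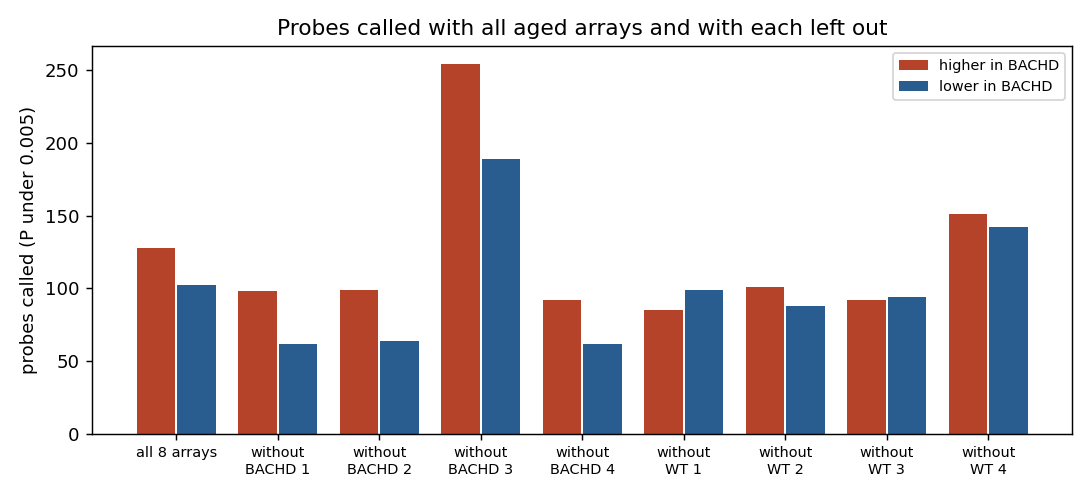
Number of probes called (vertical axis) as higher (left bar of each pair) and as lower (right bar) in BACHD hearts at 15 mo, with all arrays and with each aged array left out (horizontal axis). The counts of all calls run between 154 without BACHD 4 and 443 without BACHD 3, with 230 on all arrays.

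One array moved these counts more than the others. Without BACHD 3 the calls numbered 443, of which 175 were among the 230, and 28 probes passed an adjusted p of 0.05 in limma. Myh7 and Nppa were among the 28, with differences of 2.90 and 1.64, and so were Nmral1, Slc22a5, Hsd3b7, Lmf1, Eif3k, Arhgap9 and Riok3. Without any of the other aged arrays, the calls numbered 154 to 293, and 1 probe passed the adjusted threshold without BACHD 4 and 0 without each of the rest. BACHD 3 was also the BACHD array with the lowest Myh7 and Nppa and the highest atrial level. Of the 30 called probes of smallest P that were detected throughout (15 in each direction), 8 were not called without the 4 arrays of raised atrial level, among them those of Ces1d, Manba (both probes) and Atp6v1d, and 3 were not called with only the 8 aged arrays in the fit.

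The 2 largest rises on probes detected throughout were in genes of the fetal and stress program. Myh7, the slow myosin heavy chain, read 9.67, 10.26, 7.64 and 11.33 on BACHD arrays 1 to 4, against 7.73, 7.33, 7.83 and 7.19 on WT arrays 1 to 4. BACHD 1, BACHD 2 and BACHD 4 stood far above every WT array, and BACHD 3 lay inside the WT range. The difference was 2.21 ± 0.54 (SE), 4.61-fold, with an adjusted p of 0.436 in limma. An exact two-sided permutation test over the 35 splits of these arrays gave p = 0.0857, where 0.0286 is the smallest it can give. The call was lost when only the 8 aged arrays were fitted. Nppa, the gene for atrial natriuretic peptide, read 13.79, 14.55, 12.77 and 13.69 on BACHD arrays, against 12.16, 11.89, 12.62 and 12.80 on WT arrays. All BACHD arrays but BACHD 3 exceeded the highest WT array. The difference was 1.33 ± 0.30, 2.52-fold (adjusted p = 0.395, exact permutation p = 0.0571).

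**Figure D2:**
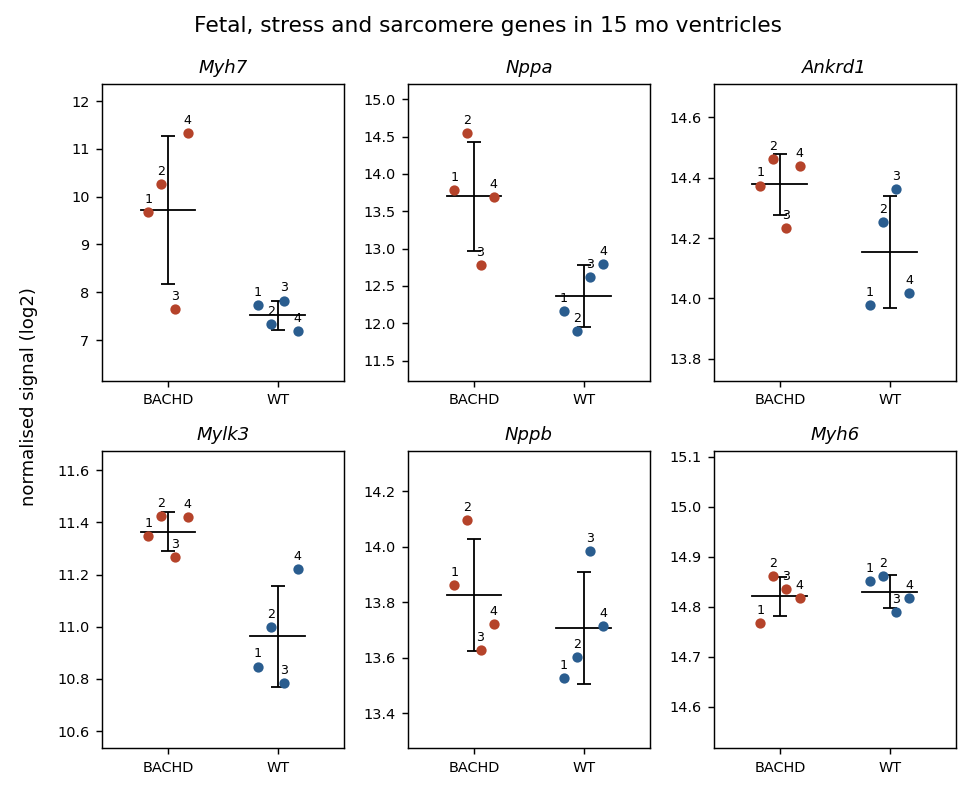
Log2 signal of Myh7, Nppa, Ankrd1, Mylk3, Nppb and Myh6 on each aged array, BACHD at the left and WT at the right of each panel, with the group mean as a line and its SD as the error bar. Myh7 and Nppa are high on BACHD 1, 2 and 4 and near the WT arrays on BACHD 3, while Nppb and Myh6 overlap between the genotypes.

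Nppa is abundant in atrial myocytes, and the atrial level was high on 2 BACHD and 2 WT arrays. With that level as a covariate, Myh7 differed by 2.11 and Nppa by 1.30, and without the 4 arrays by 2.19 and 1.78, both called each time. The 4 arrays include BACHD 3. A part of atrial tissue in these differences was not tested otherwise.

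The other members of the program moved less. Nppb, the gene for brain natriuretic peptide, read 13.86, 14.09, 13.63 and 13.72 in BACHD hearts and 13.53, 13.60, 13.99 and 13.71 in WT hearts, a difference of 0.12 ± 0.12 (adjusted p = 0.95). Its groups overlapped widely. The adult myosin Myh6 differed by -0.01 ± 0.05 (adjusted p = 0.995), with levels of 14.77 to 14.86 in BACHD hearts and 14.79 to 14.86 in WT hearts. Ankrd1, a stretch-responsive protein of the sarcomere and nucleus, differed by 0.22 on its brighter probe (adjusted p = 0.73) and by 0.57 on the other (adjusted p = 0.59), short of the threshold on both. Skeletal actin Acta1 differed by 0.76 ± 0.43 (adjusted p = 0.881), with BACHD 4 at 11.55 beside WT 1 and WT 2 at 11.51 and 11.45. Over the 10 measured members of the list, 2 rose, 0 fell and 6 differences were positive, with a median of 0.11, against a median of -0.001 and 49.5% positive over the brightest probe of all 16593 genes, of which 0.567% were called higher and 0.47% lower. Those shares are the background for the counts of every list below. They are not matched for detection, since 6693 of the 16593 genes were detected on all 8 aged arrays by that probe. Over all probes, calls were more frequent on those detected throughout (1.47%) than on those detected on none (0.442%).

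Mylk3, the cardiac kinase that phosphorylates ventricular myosin light chain, was the called member of the sarcomere list. It read 11.35, 11.42, 11.27 and 11.42 in BACHD hearts, against 10.85, 11.00, 10.79 and 11.22 in WT hearts. No BACHD array fell to the WT range. The difference was 0.40 ± 0.11 (adjusted p = 0.524), and leaving out BACHD 2, BACHD 4, WT 1 or WT 3 took P as high as 0.00941. Its other probes differed by 0.37 (adjusted p = 0.806) and 0.32 (adjusted p = 0.906). The remaining 15 members of the list, which hold the actins, troponins and thick filament proteins, were not called, and 9 of all 16 differences were positive.

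The starts of both genes are shown because TEAD factors are known to act on genes of this program. RefSeq promoters (GRCm38.p6, 250 bases before the annotated start to 50 after it) were searched on both strands for the letters CATTCC (reverse GGAATG), the core of the site bound by TEAD factors in muscle genes, and TATAAA, the TATA box. CATTCC occurred in 14.7% of 32851 promoters and TATAAA in 13.6%. Myh7 lies at chr14:54994577-54994876 on the minus strand (the first of 2 listed starts), and Nppa at chr4:148000472-148000771 on the plus strand. The Myh7 window held 1 match, to the TEAD letters, and the Nppa window 1 match, to the TATA box. The TEAD letters were thus not found in the Nppa window. Capitals mark these matches, which are a description of the letters and not evidence of binding.
Myh7: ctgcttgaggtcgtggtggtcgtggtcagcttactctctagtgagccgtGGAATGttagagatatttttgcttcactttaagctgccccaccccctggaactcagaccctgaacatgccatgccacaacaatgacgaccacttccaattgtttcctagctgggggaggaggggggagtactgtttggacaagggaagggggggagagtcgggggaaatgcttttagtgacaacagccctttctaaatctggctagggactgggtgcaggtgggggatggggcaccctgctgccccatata
Nppa: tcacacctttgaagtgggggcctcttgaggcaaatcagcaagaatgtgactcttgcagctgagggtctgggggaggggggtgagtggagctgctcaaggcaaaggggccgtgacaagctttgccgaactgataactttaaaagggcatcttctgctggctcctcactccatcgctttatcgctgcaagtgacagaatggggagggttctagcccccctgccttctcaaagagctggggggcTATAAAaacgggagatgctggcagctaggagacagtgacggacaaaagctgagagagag

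Genes of fatty acid supply were lower in BACHD hearts where they were called. Slc22a5, the plasma membrane carnitine transporter, had the smallest P of all probes detected on the 8 aged arrays. It read 9.28, 9.07, 9.46 and 9.27 in BACHD hearts, against 9.62, 9.69, 9.94 and 9.76 in WT hearts. Every BACHD array was below every WT array. The difference was -0.48 ± 0.08 (adjusted p = 0.138 in limma, exact permutation p = 0.0286), and the call held without any one array. The permutation p is unadjusted and reuses the arrays by which Slc22a5 was ranked. Any probe without overlap, 3.21% of all probes, would get the same value. A second probe of the gene differed by -0.42 (adjusted p = 0.703), and the third, at a much lower signal, by -0.01 (adjusted p = 1). Within the same shuttle, Cpt2, which releases acyl groups from carnitine inside the mitochondrion, differed by -0.32 ± 0.09 (adjusted p = 0.551). Crat, which buffers short acyl groups on carnitine, differed by -0.31 ± 0.09 (adjusted p = 0.551). The call of Cpt2 was lost without BACHD 1, BACHD 2, BACHD 4, WT 2, WT 3 or WT 4 (P up to 0.0149), and that of Crat without BACHD 1, BACHD 2, BACHD 4, WT 1 or WT 3 (P up to 0.0145). Neither was called with median scaling. Cpt1b, the muscle form of the enzyme that commits acyl groups to the mitochondrion, differed by -0.11 (adjusted p = 0.889). Of the 12 measured genes of carnitine and fatty acid uptake, 3 fell, 0 rose and 4 differences were positive, with a median of -0.09, where 0.47% of all genes were called lower and 49.5% were positive.

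Triglyceride breakdown and storage gave a second set of lower calls. Ces1d, a carboxylesterase of the endoplasmic reticulum that hydrolyses lipid esters, read 12.74, 12.61, 12.72 and 12.65 in BACHD hearts, against 13.13, 13.13, 12.92 and 13.09 in WT hearts. The highest BACHD array lay below the lowest WT array. The difference was -0.39 ± 0.07 (adjusted p = 0.138). Plin5, the droplet coat protein of oxidative muscle, read 11.56, 11.32, 11.68 and 11.53 in BACHD hearts, against 11.84, 11.77, 12.24 and 11.90 in WT hearts. Again no arrays overlapped. Its difference was -0.42 ± 0.11 (adjusted p = 0.484). The call was lost without BACHD 2 (P up to 0.00623) and with only the 8 aged arrays, and the second probe differed by -0.44 (adjusted p = 0.709).

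Mgll, the lipase of monoglycerides, differed by -0.35 ± 0.10 (adjusted p = 0.555) and was not called without BACHD 1, BACHD 2, BACHD 4, WT 2 or WT 3 (P up to 0.0185). Acot1, which cleaves acyl-CoA in the cytosol, differed by -0.76 ± 0.23 (adjusted p = 0.555). BACHD hearts read 11.23, 11.30, 11.01 and 10.93 for it, against 11.23, 12.02, 12.71 and 11.56 in WT hearts. WT 3 was the highest and WT 1 lay among the BACHD arrays, and the call was lost without any of 6 arrays (BACHD 1 to 4, WT 2 and WT 3, P up to 0.0156). Lmf1, needed for the maturation of lipoprotein lipase, differed by -0.34 ± 0.08 (adjusted p = 0.404), a call that held without any one array but not with only the 8 aged arrays or with median scaling. Pnpla2, the first lipase of the droplet, differed by 0.01 (adjusted p = 0.997), and Plin3, a coat protein found in many tissues, by 0.43 (adjusted p = 0.64), which was not called. Of 16 measured lipid esterases and droplet proteins, 2 fell, 0 rose and 6 differences were positive, with a median of -0.04. Of 18 measured PPAR and PGC1 regulators and targets, 2 fell (Plin5 and Acot1) and 8 differences were positive, with a median of -0.03.

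**Figure D3:**
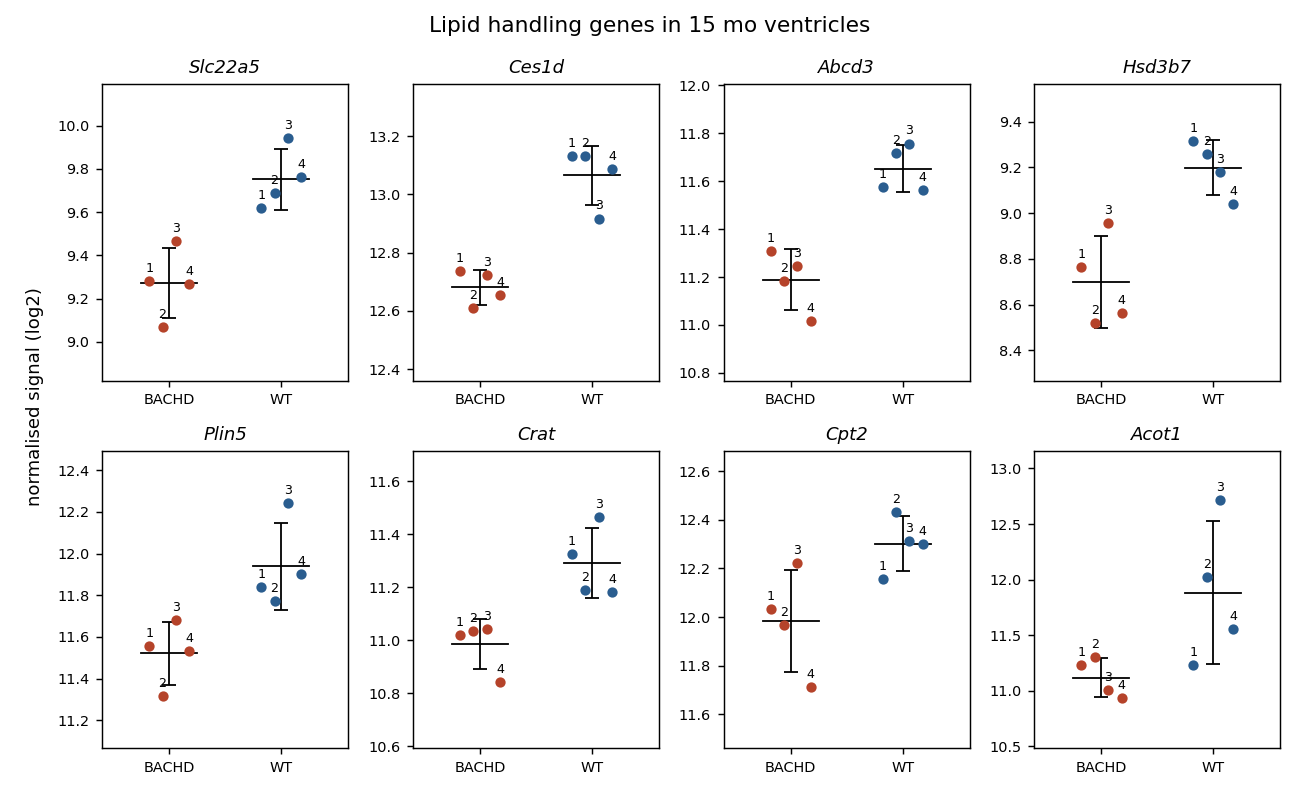
Log2 signal of Slc22a5, Ces1d, Abcd3, Hsd3b7, Plin5, Crat, Cpt2 and Acot1 on each aged array, BACHD at the left and WT at the right of each panel, with the group mean as a line and its SD as the error bar. For the first 6 genes every BACHD array lies below every WT array, and the groups overlap for Cpt2 and Acot1.

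Abcd3, the peroxisomal membrane transporter of long branched acyl-CoA and bile acid intermediates, read 11.31, 11.18, 11.25 and 11.02 in BACHD hearts, against 11.58, 11.72, 11.76 and 11.56 in WT hearts. No arrays overlapped. The difference was -0.46 ± 0.08 (adjusted p = 0.138), which was not called with median scaling. Hsd3b7, an enzyme of bile acid synthesis from cholesterol, was lower on both of its probes, by -0.50 ± 0.10 (adjusted p = 0.261) and -0.47 ± 0.11 (adjusted p = 0.404). Of 20 measured peroxisomal genes, Abcd3 fell, 0 rose and 6 differences were positive, with a median of -0.05. Gpt2, the mitochondrial alanine aminotransferase, differed by -0.51 ± 0.10 (adjusted p = 0.247) and was the called member among 21 genes of amino acid catabolism, 12 of which had positive differences.

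The enzymes of the oxidation spiral itself gave no call. All 16 measured genes of mitochondrial fatty acid oxidation were detected on every aged array, 4 differences were positive, and the median was -0.13. Those with P below 0.05, the share of which was 6.12% over all probes, were 5 of the 16, and all 5 were lower in BACHD hearts. That share includes probes detected on no aged array, so it is not matched to these genes. Decr1, needed for unsaturated acyl groups, came nearest with -0.33 ± 0.10 (adjusted p = 0.576), followed by Eci1 (-0.17, adjusted p = 0.73), Acads (-0.21, adjusted p = 0.74), Acadvl (-0.19, adjusted p = 0.745) and Acot2 (-0.42, adjusted p = 0.804). Acadm, the medium-chain dehydrogenase, differed by 0.08 (adjusted p = 0.889). Downstream of these, 49 subunits of the respiratory chain and ATP synthase had 0 calls, 22 positive differences and a median of -0.01. The 20 genes of the tricarboxylic acid cycle and pyruvate dehydrogenase had 0 calls, 7 positive differences and a median of -0.06, and the 21 of glycolysis, glucose uptake and glycogen had 0 calls, 10 positive and a median of -0.01.

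Several of these genes are also strong in liver, and liver-type transcripts varied widely between the aged hearts. The mean level of 8 liver markers was 5.54, 6.59, 6.26 and 6.72 on BACHD arrays 1 to 4. It was 4.83, 7.08, 8.57 and 6.84 on WT arrays 1 to 4. Of these markers 0 were called, 7 were lower in BACHD hearts by value, and the median of -0.71 ran in the same direction as the calls above. Alb, the defining one, was not detected on any aged array. Apoa2 ranged between 6.71 and 9.57 in BACHD hearts and between 5.89 and 12.34 in WT hearts. The 8 adipocyte markers had a mean level of 5.33 to 5.50 in BACHD hearts and 5.32 to 6.04 in WT hearts, with 0 calls, 7 negative differences and a median of -0.10. The part of either in the values of the fatty acid genes was not tested.

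The starts of a called gene of uptake and one of storage are shown because PPAR factors, which control many genes of this pathway, bind paired copies of AGGTCA. These letters (reverse TGACCT) were found in 16.3% of 32851 RefSeq promoters of the same length (GRCm38.p6). Slc22a5 lies at chr11:53891654-53891953 and Plin5 at chr17:56117499-56117798 (the first of 2 listed starts), both on the minus strand. The Plin5 window held 1 match, in capitals, and the Slc22a5 window held 0 matches to any of the 3 motifs, which says only that those letters are not in it.
Slc22a5: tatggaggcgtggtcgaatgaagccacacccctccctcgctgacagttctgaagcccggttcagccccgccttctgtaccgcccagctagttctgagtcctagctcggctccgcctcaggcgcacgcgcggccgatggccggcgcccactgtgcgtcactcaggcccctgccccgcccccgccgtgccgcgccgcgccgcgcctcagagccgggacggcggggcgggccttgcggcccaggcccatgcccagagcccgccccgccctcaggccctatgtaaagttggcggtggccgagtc
Plin5: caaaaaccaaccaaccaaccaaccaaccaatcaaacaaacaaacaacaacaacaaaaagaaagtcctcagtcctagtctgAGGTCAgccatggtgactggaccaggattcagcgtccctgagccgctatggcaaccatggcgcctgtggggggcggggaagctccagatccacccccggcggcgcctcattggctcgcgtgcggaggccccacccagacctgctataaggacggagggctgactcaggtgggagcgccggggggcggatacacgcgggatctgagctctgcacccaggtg

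Among lysosomal genes, the lower calls were Manba and Ctsc. Manba, which removes mannose from glycoproteins under breakdown, read 9.06, 8.94, 9.13 and 9.00 in BACHD hearts, against 9.60, 9.53, 9.22 and 9.42 in WT hearts. All BACHD arrays were lower. The difference was -0.41 ± 0.08 (adjusted p = 0.259), and the second probe differed by -0.44 ± 0.09 (adjusted p = 0.261). Neither probe was called with median scaling. Ctsc, a protease that activates the granule proteases of immune cells, differed by -0.30 ± 0.08 (adjusted p = 0.508), and the call was lost without BACHD 1, BACHD 2 or WT 1 (P up to 0.00687). Of 28 measured lysosomal hydrolases and membrane proteins, 2 fell, 0 rose and 11 differences were positive, with a median of -0.06.

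The called gene of nutrient signaling at the lysosome was higher. Rragd, a Rag GTPase that helps bring mTORC1 to the lysosome, read 8.78, 8.85, 8.71 and 8.86 in BACHD hearts, against 8.20, 8.25, 8.32 and 8.54 in WT hearts. Even the lowest BACHD array exceeded the highest WT array. The difference was 0.47 ± 0.09 (adjusted p = 0.223). Of 24 measured Rag and mTORC1 genes, Rragd rose, 0 fell and 19 differences were positive, with a median of 0.02. Atp6v1d, a stalk subunit of the proton pump, differed by 0.35 ± 0.08 (adjusted p = 0.404), and Atp6v1g2, a G subunit known mainly from neurons, by -0.30 ± 0.09 (adjusted p = 0.551). With median scaling, neither was called. Atp6v1g2 was also lost without BACHD 1, BACHD 3, BACHD 4, WT 1 or WT 2 (P up to 0.016). All 16 measured pump subunits were detected throughout, 11 differences were positive, and the median was 0.05. Bnip3l, a receptor for mitophagy and a member of the BCL2 family, differed by 0.42 ± 0.11 (adjusted p = 0.509), and was not called without BACHD 2, BACHD 4, WT 1 or WT 2 (P up to 0.00741). It was the called member of the 28 measured autophagy genes and of the 27 that promote apoptosis, which had 16 and 14 positive differences.

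Among genes of protein synthesis, Eif3k, a subunit of the initiation factor that loads messenger RNA on the ribosome, read 9.82, 9.71, 9.49 and 9.58 in BACHD hearts, against 9.15, 9.20, 9.31 and 9.36 in WT hearts. No arrays overlapped, although BACHD 3 and WT 4 were close. The difference was 0.39 ± 0.08 (adjusted p = 0.223). Rpl21, a protein of the large ribosomal subunit, differed by 0.36 ± 0.08 (adjusted p = 0.295), while its dimmer probe differed by -0.15 (adjusted p = 0.965), and ribosomal protein genes have many processed copies that a probe may share. Of 47 measured cytosolic ribosomal proteins, Rpl21 rose, 0 fell and 33 differences were positive, with a median of 0.05. Of 28 initiation factors, Eif3k rose, 0 fell and 19 were positive, with a median of 0.03. Riok3, a kinase of small subunit maturation, differed by 0.28 ± 0.07 (adjusted p = 0.404) and was not called with median scaling or with only the 8 aged arrays.

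The smallest P among the higher calls detected throughout belonged to Nmral1, a protein that senses the ratio of NADPH to NADP. It read 6.93, 7.47, 6.62 and 7.06 in BACHD hearts, against 6.11, 6.27, 6.33 and 6.17 in WT hearts. The BACHD arrays were spread more widely and all were above the WT arrays. The difference was 0.80 ± 0.14, 1.75-fold (adjusted p = 0.138). Arhgap9, a GTPase activator best known from blood cells, differed by 0.90 ± 0.19 (adjusted p = 0.261), and Ppfibp2, a liprin, by 0.65 ± 0.14 (adjusted p = 0.292) on its brighter probe and 0.50 on the other (adjusted p = 0.528). Further higher calls of the same rank were Vstm2l (0.49, adjusted p = 0.138), Ccdc68 (0.58, adjusted p = 0.259), Cdkl3 (0.39, adjusted p = 0.261), Xk (0.34, adjusted p = 0.261), Fkbp11 (0.51, adjusted p = 0.404) and Aig1 (0.47, adjusted p = 0.404). These calls held without any one aged array, save for the second Ppfibp2 probe (lost without BACHD 1, BACHD 2, WT 1 or WT 4, P up to 0.013), but Fkbp11 was not called with only the 8 aged arrays, nor Ccdc68 and Xk without the 4 arrays of raised atrial level. The lower calls of that rank were Stk38l, a kinase of the NDR family (-0.43, adjusted p = 0.261), Nhej1, which joins DNA ends (-0.53, adjusted p = 0.291), Zdhhc14, a palmitoyl transferase (-0.51, adjusted p = 0.305), Armh4 (-0.68, adjusted p = 0.377), B9d1, a protein of the ciliary base (-0.37, adjusted p = 0.404), and Dut, the dUTPase (-0.46, adjusted p = 0.418). All 6 held without any one aged array, but Stk38l, Zdhhc14 and B9d1 were not called with median scaling, nor Zdhhc14 and Dut without the 4 arrays.

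Genes of conduction and of adrenergic signaling gave 1 call each. Gjc1, connexin 45, read 7.27, 7.30, 7.17 and 7.64 in BACHD hearts, against 6.44, 6.94, 7.04 and 6.63 in WT hearts. All BACHD arrays were higher, by little for BACHD 3. The difference was 0.58 ± 0.15 (adjusted p = 0.508), which was not called without BACHD 4, WT 1 or WT 4 (P up to 0.00691). Prkar1a, the regulatory subunit of protein kinase A, differed by 0.24 ± 0.07 (adjusted p = 0.555) and was not called without BACHD 1, BACHD 2, WT 2, WT 3 or WT 4 (P up to 0.0194). Kcnip2, the partner of the channels behind the transient outward current, differed by 0.21 ± 0.17 (adjusted p = 0.919) on its brightest probe and by -0.14 and 0.01 on 2 others detected throughout. The 15 measured potassium channel genes and the 17 of calcium cycling had 0 calls, with medians of 0.01 and 0.06.

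Collagen chains and fibroblast markers were mostly on the lower side by value, without passing the threshold. Of 18 measured collagen chains, 0 were called, 4 differences were positive and the median was -0.28. The 10 detected on all aged arrays had 0 positive differences. Col5a1, which seeds fibrils, came nearest, with 8.63, 8.60, 9.12 and 8.63 in BACHD hearts against 9.22, 9.25, 9.16 and 8.90 in WT hearts. BACHD 3 lay inside the WT range and the other BACHD arrays below it. The difference was -0.38 ± 0.13 (adjusted p = 0.649). Col16a1 (-0.33, adjusted p = 0.757), Col6a1 (-0.31, adjusted p = 0.776), Col5a3 (-0.32, adjusted p = 0.813) and Col15a1 (-0.61, adjusted p = 0.813) also had P below 0.05. The 15 enzymes of collagen processing had 0 calls, 5 positive differences and a median of -0.15. The other matrix lists had 0 calls, with 8 of 28 positive and a median of -0.08 for matrix glycoproteins and 9 of 19 positive and a median of -0.07 for matrix proteases and their inhibitors. Of 12 fibroblast markers, 0 were called, 1 difference was positive and the median was -0.22, with a mean level of 7.67 to 8.06 in BACHD hearts and 7.81 to 8.20 in WT hearts. Postn, the marker of activated fibroblasts, was not detected on any aged array. Fibroblast abundance was not measured, and its part in the collagen values was not tested.

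**Figure D4:**
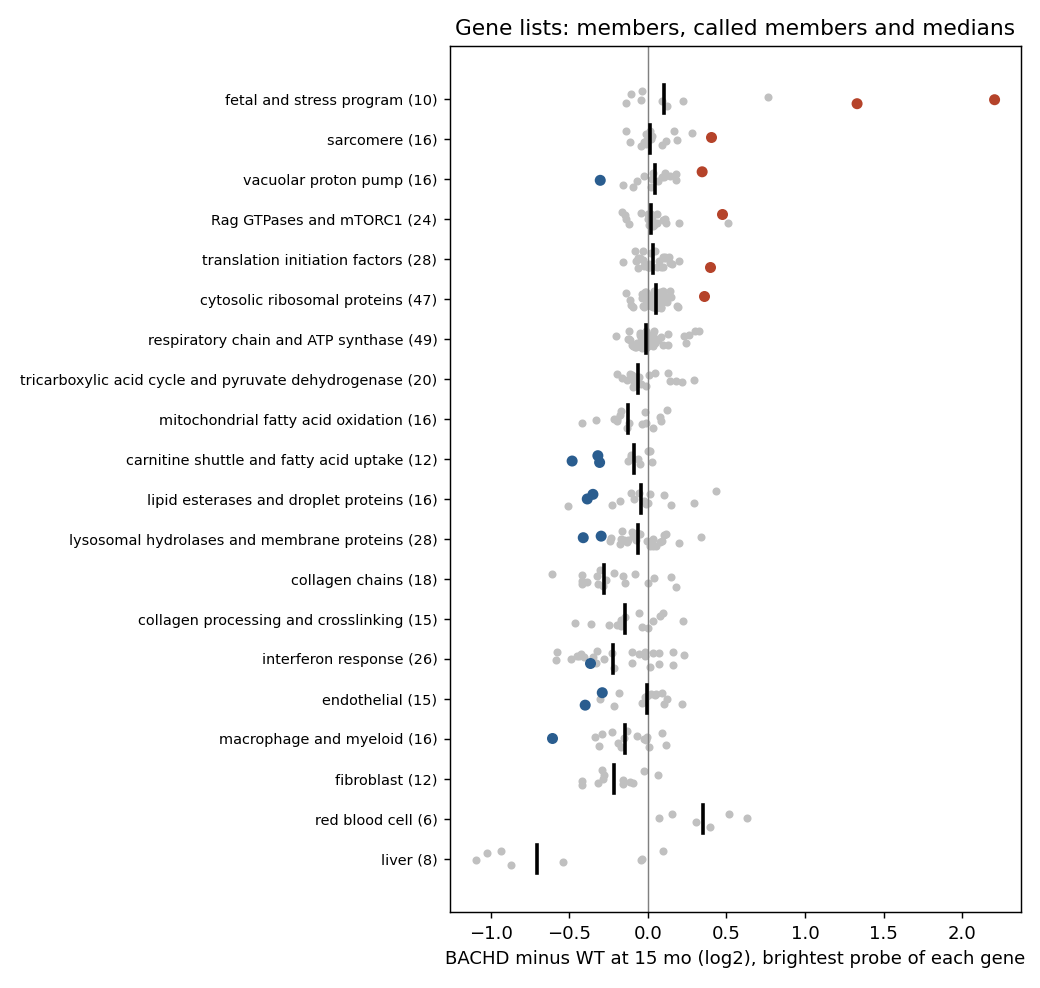
Difference in log2 signal, BACHD minus WT at 15 mo, for each measured member of selected gene lists, 1 point per gene from its brightest probe, with called members coloured and the list median as a black bar. Collagen chains, the interferon response and fibroblast markers lie mostly below 0 with few or no called members, and Myh7 and Nppa stand apart to the right in the fetal and stress program.

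Interferon response genes held 1 lower call. Ifnar2, a chain of the receptor for type I interferon, read 6.15, 6.05, 6.09 and 6.02 in BACHD hearts, against 6.46, 6.56, 6.28 and 6.48 in WT hearts. No arrays overlapped. The difference was -0.37 ± 0.09 (adjusted p = 0.508), lost without WT 2 (P up to 0.00608) and with median scaling, and another detected probe differed by -0.01 (adjusted p = 0.998). Of 26 measured genes, Ifnar2 fell, 0 rose and 7 differences were positive, with a median of -0.22. The genes that interferon induces were not called. Gbp2, a GTPase of cell defence, read 9.27, 8.81, 9.64 and 8.89 in BACHD hearts against 9.82, 9.96, 9.98 and 9.17 in WT hearts (-0.58 ± 0.19, adjusted p = 0.613). WT 4 was low among the WT arrays and BACHD 3 high among the BACHD arrays. Irf5, Gbp3 and Ifit3 differed by -0.44, -0.59 and -0.49 (adjusted p = 0.654, 0.709 and 0.745).

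Among markers of macrophages, Adgre1, a surface marker of mature macrophages, fell by 0.61 on the log2 scale (SE 0.17, adjusted p = 0.528). BACHD hearts read 5.80, 6.58, 6.78 and 6.54 for it, against 6.84, 7.21, 6.82 and 7.27 in WT hearts. BACHD 1 was the lowest by far, BACHD 3 was close to WT 3, and the call was lost without BACHD 1, WT 2 or WT 4 (P up to 0.0116). A second detected probe differed by -0.20 (adjusted p = 0.914). Of 16 measured macrophage and myeloid genes, 3 differences were positive and the median was -0.15, with C1qa at -0.29 (adjusted p = 0.81). Endothelial genes were divided, with 2 called of 15, both lower (0.47% of all genes), 7 positive differences and a median of -0.003. Eng, a coreceptor of the TGF-beta family, differed by -0.40 ± 0.12 (adjusted p = 0.555), and Stab1, a scavenger receptor of sinusoidal endothelium and macrophages, by -0.29 ± 0.08 (adjusted p = 0.509). Eng was lost without BACHD 1, BACHD 2, BACHD 4, WT 2 or WT 3 (P up to 0.0163) and Stab1 without BACHD 2, BACHD 4, WT 2 or WT 3 (P up to 0.00711), and neither was called with median scaling. Csrp2, a LIM protein of smooth muscle, differed by -0.40 ± 0.10 (adjusted p = 0.48) and was lost without BACHD 2 or WT 2 (P up to 0.00609) and with median scaling. All 6 measured red blood cell genes were higher in BACHD hearts by value, with a median of 0.35 and 0 calls, and their mean level was 9.39 to 9.96 in BACHD hearts and 9.02 to 9.92 in WT hearts. The part of blood, macrophages or vessels in other results was not tested.

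Of the 55 lists examined, 32 held no called member, and 29 of the 949 measured genes on the lists were called, 12 higher (1.26%, against 0.567% of all genes) and 17 lower (1.79%, against 0.47%). The lists were chosen with earlier results of these data known, so these shares are no result about them. Those without a call included 20 chaperones of the HSP70, HSP40, HSP90 and HSP110 families (median 0.03), 8 small heat shock proteins with Bag3 (-0.02), 21 genes of the endoplasmic reticulum stress response (-0.02), 30 proteasome and muscle ubiquitin ligase genes (-0.02) and 29 antioxidant genes (0.01). Hspa1a, the inducible HSP70, averaged 5.51 ± 0.24 in BACHD hearts and 5.80 ± 0.21 in WT hearts (SD, n = 4 each), without a call. Both means are near the lowest signal of any detected probe, 5.50 to 5.76 on the aged arrays, and WT 2 was the highest WT array at 6.11. No difference in level is read from them. The immediate early genes, 23 in number, had 0 calls and a median of -0.02, although Fos differed by -1.38 (adjusted p = 0.789). The 18 clock genes had 0 calls and wide levels. Dbp, a clock output gene, read 12.26, 12.54, 11.89 and 12.07 in BACHD hearts, against 10.24, 11.66, 11.38 and 12.98 in WT hearts. The WT arrays covered a far broader range than the BACHD arrays, and the difference was 0.62 (adjusted p = 0.902).

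Where no array of a group detected a probe, its fold is only a bound. Tlcd4, a membrane protein with a TLC lipid-sensing domain, was detected on 0 of 4 BACHD arrays and 4 of 4 WT arrays. It read 5.15, 5.24, 5.55 and 5.34 in BACHD hearts, against 6.25, 6.50, 6.37 and 6.01 in WT hearts. Its level was at least 1.61-fold lower in BACHD hearts (adjusted p = 0.138), taking for each undetected array the lowest signal among detected probes where that was higher. Zfp941, detected on 3 BACHD arrays and 0 WT arrays, was at least 1.03-fold higher (adjusted p = 0.223), and Hr, a nuclear corepressor detected on 0 BACHD arrays and 2 WT arrays, was at least 1.02-fold lower on its called probe (adjusted p = 0.32). A brighter Hr probe differed by -0.21 (adjusted p = 0.946). For Slc7a1, the cationic amino acid transporter, detected on 1 BACHD array and 0 WT arrays, no fold can be given (adjusted p = 0.138 on the higher side), nor for Adap1 (adjusted p = 0.292) and Ncam1 (adjusted p = 0.423). Where only some arrays of a group detected a probe, the others entered at signals below detection, and no size is given for those that follow. Psmd9, a proteasome assembly chaperone detected on 4 BACHD arrays and 1 WT array, was called higher (adjusted p = 0.377). Called lower were Rbm15, an RNA-binding protein (adjusted p = 0.247), Anpep, an aminopeptidase (adjusted p = 0.509), and Serpini1, the neuroserpin gene (adjusted p = 0.524), each detected on 3 BACHD arrays and 4 WT arrays. Anpep was lost without BACHD 4 or WT 1 (P up to 0.00716) and Serpini1 without BACHD 3, WT 1, WT 2 or WT 4 (P up to 0.0102) and with only the 8 aged arrays. Of the 61 calls on probes detected nowhere, Cbx1, Olfr133 and Adam20 had the smallest P on the higher side and Ntng1, Klrk1 and Crmp1 on the lower side. No level can be read from such probes.

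Where a gene had several probes they did not always follow each other. Of 96 called genes with more than 1 probe, all probes ran in 1 direction for 63, and more than 1 probe was called for 8, namely Abat, Ctsc, Hsd3b7, Lsm12, Manba, Ppfibp2, Septin6 and Smyd2.

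The same contrast at 3 mo used other mice and shares no array with the aged one. Of the 230 probes called at 15 mo, 108 had the same sign at 3 mo (47.0%), against 48.1% of all probes. At 3 mo 124 probes were called (0.483%), and 5 of the 230 were among them in the same direction. These were Abcd3, Manba, Abat, Mpv17l and Pdzd3. At 3 mo Abcd3 read 11.35, 11.48, 11.24 and 11.26 in BACHD hearts, against 11.70, 11.57, 11.75 and 11.56 in WT hearts, a difference of -0.31 ± 0.08 (adjusted p = 0.849). Manba read 9.37, 9.27, 9.19 and 9.16 in young BACHD hearts, against 9.72, 9.54, 9.68 and 9.57 in young WT hearts (-0.38 ± 0.08, adjusted p = 0.766). Both were thus lower in every BACHD mouse than in every WT mouse at each age. Abat, which breaks down GABA, differed by 0.42 at 3 mo (adjusted p = 0.948) and 0.50 at 15 mo on the same probe (adjusted p = 0.418), Mpv17l by 0.51 (adjusted p = 0.0789) and 0.38 (adjusted p = 0.223), and Pdzd3 by 0.46 (adjusted p = 0.849) and 0.40 (adjusted p = 0.555). The called Mpv17l probe was detected on 9 of the 16 arrays, so its values include signals below detection. Another Mpv17l probe, detected on all aged arrays, differed by -0.06 at 15 mo (adjusted p = 0.971). The call of Pdzd3 at 15 mo was lost without BACHD 1, BACHD 2, BACHD 3, WT 1 or WT 2 (P up to 0.0173). Abcd3, Manba and Tlcd4, taken from the genes called at 15 mo, all lie on mouse chromosome 3. In the RefSeq order, 5 protein-coding genes lie between Tlcd4 and Abcd3 and 70 between Abcd3 and Manba. Tlcd4 was not called at 3 mo (a difference of -0.15), on a probe detected on 10 of the 16 arrays. Of 1182 probes on chromosome 3, 17 were called at 15 mo (1.44%), against 0.895% of all probes and 1.29% on chromosome 10. Other genes called at both ages shared a chromosome too. Abat and Mpv17l lie on chromosome 16, Pdzd3 and Slc17a5 on chromosome 9, and Rragd and Zfp933 on chromosome 4. Of the probes on these, 0.803%, 0.907% and 0.754% were called at 15 mo. A part of chromosomal position in any of these values was not tested.

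**Figure D5:**
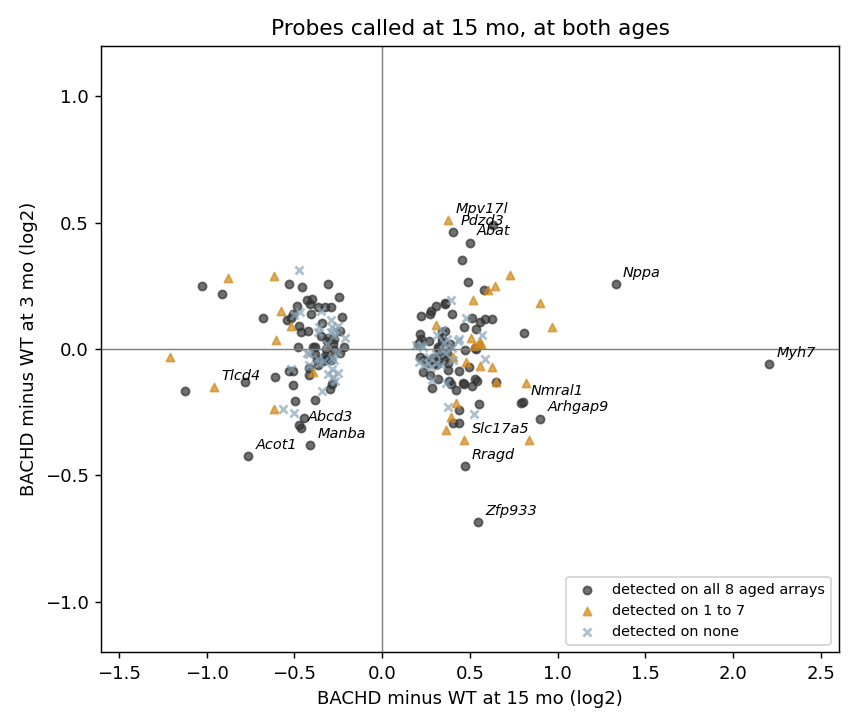
Difference in log2 signal, BACHD minus WT, at 15 mo (horizontal) and at 3 mo (vertical) for the 230 probes called at 15 mo, with named genes marked. Abcd3 and Manba lie below 0 on both axes, while Rragd and Zfp933 lie above 0 at 15 mo and below 0 at 3 mo.

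Rragd, Slc17a5 and Zfp933 were called in opposite directions at the 2 ages. Rragd read 8.10, 8.24, 8.39 and 8.14 in BACHD hearts at 3 mo, against 8.87, 8.70, 8.58 and 8.59 in WT hearts, a difference of -0.46 ± 0.09 (adjusted p = 0.564). The genotypes were completely separated at each age, in opposite order. The difference between the ages in the genotype effect was 0.93 (adjusted p = 0.0576 in limma), the smallest P of all probes for that contrast. For Zfp933, a zinc finger gene, it was 1.23 (adjusted p = 0.485), with 0.55 at 15 mo and -0.69 at 3 mo, and for Slc17a5, the lysosomal sialic acid exporter, 0.83 (adjusted p = 0.485). The Slc17a5 probe was detected on 12 of the 16 arrays, so its values include signals below detection. The call of Zfp933 at 15 mo was lost without BACHD 2, BACHD 4, WT 1 or WT 3 (P up to 0.0125).

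The genotype effect differed between the ages for 157 probes (0.611% of all probes) and for 58 of the 230, a count that reuses the aged arrays by which the 230 were chosen and so describes them only. Slc22a5 and Ces1d differed between BACHD and WT hearts by 0.01 each at 3 mo, and the tests of the difference between the ages gave -0.49 (adjusted p = 0.646) and -0.40 (adjusted p = 0.646). For Crat the genotype effect on its called probe was 0.26 at 3 mo and the difference -0.56 (adjusted p = 0.646). Other Crat probes detected on all aged arrays differed by -0.35 and -0.50 at 3 mo and by -0.23 and -0.25 at 15 mo. They were thus lower by value at both ages, without a call at either. For Plin5 the genotype effect was -0.08 at 3 mo, and the difference of -0.34 did not pass (adjusted p = 0.801). For Myh7 the effect at 3 mo was -0.06 ± 0.54 and the difference 2.27 (adjusted p = 0.761), and for Nppa 0.26 and 1.07 (adjusted p = 0.787), so neither was shown at this threshold to differ between the ages. Nppb differed by 0.47 at 3 mo (adjusted p = 0.876) and 0.12 at 15 mo, and the difference of -0.35 did not pass either (adjusted p = 0.82).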

How the data were processed

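Ventricular RNA of 16 mice was read on Illumina MouseRef-8 v2.0 BeadChips, 1 array a mouse. The authors deposited raw bead signal intensity for 25697 probes, each with its detection p-value on every array. The processed table they deposited holds log2 values equal to the quantile-normalized log2 intensity to within 5.0e-09. How those were made, the slides and the scan dates are not given in the sources used here.

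Starting from the raw intensity, neqc of limma 3.58.1 (R 4.3.3) applied normexp, with an offset of 16 and the negative controls estimated through the detection p-values, then quantile normalization and log2. All 16 arrays entered one fit of 4 group means with 12 residual degrees of freedom, from which the genotype contrast at 15 mo, that at 3 mo and their difference were taken. Calls needed an unadjusted P below 0.005, and adjusted p-values (Benjamini-Hochberg, all probes) were set against 0.05. Permutation tests of single genes were exact and two-sided over 35 splits. A list gene was represented by its brightest probe. The platform annotation gave 1 symbol for 23978 probes and none for 1719, and 167 of the 211 called genes had a RefSeq promoter.

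By rule, the genes named were those of smallest P among probes detected on all aged arrays (15 in each direction), on some (5) and on none (3), up to 4 called members of each list, 12 genes of prior interest (Ddx3y had no probe) and the 5 probes of smallest P for the difference between the ages. List members not called are given where their list is described, and Abat, Acsm5, Ano10, Dbi, Fitm2, Irx3, Lsm12, Mpv17l, Pdzd3, Scx, Sdc4, Septin6, Slc17a5 and Smyd2 were named after their values were seen. The 55 lists and the genes on them were chosen with earlier results of these data known, so lists are described and not tested.

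On simulated data for this contrast over 25697 probes, the fit called 45 of 67 changed by 0.5 on the log2 scale, 64 of 67 changed by 1, 65 of 66 changed by 2 and 123 of 25497 unchanged. The noise was drawn independently for each probe from its own residual spread. Variation shared by many probes of an array was not simulated, so these counts may not hold for the real arrays. The background step (none, or an offset of 50), the scaling (median, or the processed log2 values), the filter, the arrays fitted, the variances, array weights, a replicate block, averaging over probes and each aged array left out were varied in turn. The atrial level as a covariate and the removal of 4 arrays for it were added after seeing the data.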

Additional observations from a re-analysis of the deposited data

Results flagged for a closer look

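In 7 of 136 groups of 4 arrays tested among the named probes, 1 array stood away from the rest by Dixon's criterion, which chance alone meets in about 1 in 20 groups. BACHD 4 was the lowest of its group for Crat (10.84), for the second Manba probe (7.43), for Rbm15 (5.42) and for Hr (4.87). BACHD 3 was the lowest of its group for Zfp941 (5.15). WT 1 was the highest of its group for Prkar1a (13.52), and WT 2 for Hspa1a (6.11). With that array left out, the call of Crat was lost, while those of Zfp941, Manba, Rbm15, Hr and Prkar1a held, and Hspa1a was not called with all arrays.

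For 25 of 68 named probes, the genotype effect at 15 mo differed from that at 3 mo at P below 0.005. Since most of these probes were chosen by the aged arrays that enter the test, the values describe them. Those of Arhgap9, Tlcd4, Adap1, Rbm15 and Hr include arrays on which the probe was not detected. That of Crat is from its called probe, and its other probes were lower by value at both ages. BACHD minus WT at 15 mo, less the same at 3 mo, was above 0 for Zfp933 (1.23), Arhgap9 (1.18), Nmral1 (1.01), Rragd (0.93), Ppfibp2 (0.78), Adap1 (0.70), Mylk3 (0.69), Bnip3l (0.58), Eif1a (0.47), Cdkl3 (0.37) and Riok3 (0.33). It was below 0 for Hr (-0.90), Tlcd4 (-0.81), Armh4 (-0.80), Dut (-0.70), Zdhhc14 (-0.65), Stk38l (-0.63), Rbm15 (-0.61), Eng (-0.60), Crat (-0.56), Dpp7 (-0.55), Slc22a5 (-0.49), Stab1 (-0.46), Lmf1 (-0.45) and Ces1d (-0.40). Eif1a, a factor of start codon choice, and Dpp7, a lysosomal peptidase, were not called at 15 mo (0.20 and -0.19) and were called the other way at 3 mo (-0.27 and 0.36).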

How the results depend on the processing

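All 230 called probes kept the sign of their difference under each alternative that tested them (157 of them passed the filter on detection). Against 230 calls, 138 were made with median scaling, 127 with a filter to probes detected on 4 or more arrays, 153 after averaging the probes of a gene and 408 on leaving out the 4 arrays of raised atrial level (chosen after seeing the data). Of the 230, 114, 127 and 83 were called under the first, the second and the last of these. Calls on the higher side, 128, became 81, 68 and 212 with median scaling, the filter and the 4 arrays left out, and calls on the lower side, 102, became 57, 59 and 196 there and 62 with probes averaged. Leaving out 1 aged array gave 154 to 443 calls, 85 to 254 on the higher side and 62 to 189 on the lower side, with all 3 upper ends without BACHD 3. The 85 came without WT 1, and the lower side had 62, 64 and 62 without BACHD 1, BACHD 2 and BACHD 4. Probes past an adjusted p of 0.05 in limma numbered 0 to 28 with 1 array left out (28 without BACHD 3, 1 without BACHD 4), 2 with trended and robust variances and 0 otherwise. The 157 calls of the difference between the ages became 95 with median scaling, 87 with the filter, 323 without the 4 arrays and 121 to 331 with 1 array left out (331 without BACHD 3). The cause of these shifts was not tested, except that the filter and the averaging test fewer features.

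The 68 named probes detected on at least 1 aged array include some without a call, such as those of Nppb and Myh6, which had none to lose. Of the others, 23 lost the call with median scaling, 14 with only the aged arrays, 10 with trended and robust variances, 4 with the atrial level as a covariate and 27 without the 4 arrays. Myh6, not called at -0.01, lay between -0.023 (without BACHD 2) and 0.0083 (without BACHD 1) with 1 array left out and was above 0 without BACHD 1 or WT 2 and at 0.0020 with probes averaged, and Hspa1a turned to 0.0041 without the 4 arrays. Samples with the same replicate number did not deviate together at every number (r of 0.04 to 0.149 at 15 mo and -0.07 to 0.283 at 3 mo). These few correlations cannot decide whether the numbers pair the mice, and the main fit did not pair them. With the replicate block, 230 probes were called, 130 higher and 100 lower, 166 of them among the 230, and 196 for the difference between the ages. A block for the slide was not run, since no source used here names one. Bead signals near the background limit all calls on probes detected on few arrays.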

Other observations

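Some called genes outside the lists also differed on probes detected on all aged arrays. These were picked after their values were seen, and none passed an adjusted p of 0.05 in limma. Sdc4, a heparan sulfate proteoglycan of the cell membrane, read 8.54, 8.65, 8.10 and 8.56 in BACHD hearts, against 7.43, 7.90, 7.97 and 8.04 in WT hearts (0.63 ± 0.17, adjusted p = 0.522). No arrays overlapped, though BACHD 3 was close to WT 4. Irx3, a homeobox factor of the conduction system, differed by 0.55 ± 0.17 (adjusted p = 0.555). Scx, a transcription factor of tendon, differed by 0.79 ± 0.19 (adjusted p = 0.404), with BACHD 3 at 7.28 below WT 3 at 7.39. On the lower side, Acsm5, a mitochondrial acyl-CoA synthetase, read 6.87, 6.40, 7.43 and 6.97 in BACHD hearts, against 7.67, 7.68, 7.90 and 7.54 in WT hearts (-0.78 ± 0.21, adjusted p = 0.524). Every BACHD array was below every WT array. Fitm2, which takes part in lipid droplet formation, differed by -0.31 ± 0.08 (adjusted p = 0.509), Dbi, the acyl-CoA binding protein, by -0.27 ± 0.08 (adjusted p = 0.551) and Ano10, of the anoctamin family, by -1.12 ± 0.29 (adjusted p = 0.509). The call of Scx held without any one aged array. Irx3 and Dbi were each lost without BACHD 1, BACHD 2, BACHD 4, WT 1, WT 2 or WT 3 (P up to 0.0188 and 0.0149). Sdc4 was lost without BACHD 1, BACHD 2, BACHD 4 or WT 1 (P up to 0.00848), Acsm5 without BACHD 1, BACHD 2, WT 2 or WT 3 (P up to 0.00998), Ano10 without BACHD 2, BACHD 4, WT 1 or WT 2 (P up to 0.00737), and Fitm2 without BACHD 2 or WT 3 (P up to 0.00713).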
